A study of Mus musculus with 20 samples.

Results

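This report describes 10 genes of the STAT3-activating cytokine axis in mouse skin carcinogenesis: the IL-6 family ligands Il6, Il11, Lif and Osm, the oncostatin M receptor gene Osmr, the IL-20 family ligands Il19, Il20 and Il24, the transcription factor Stat3 and its feedback inhibitor Socs3. They were chosen by symbol, and all 10 were found among the 22090 genes of the count table. RNA sequencing covered 20 back skin tissues of female SKH-1 hairless mice, supplied at an age of 7 months and sampled after the irradiation period: 8 normal skin samples (NS), 8 actinic keratoses (AK) and 4 cutaneous squamous cell carcinomas (cSCC). Of 8 mice, 4 were left without ultraviolet radiation (UV) and gave NS only, and 4 were irradiated and each gave 1 normal and 3 lesion tissues, so that 8 AK stand for 4 mice. The labels do not say which NS were irradiated, which tissues share a mouse or which of the AK grades a sample had, so tissues were treated as independent and the p-values may be too small.

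Cytokines of the IL-6 family signal through the shared receptor chain gp130, which is paired with a chain specific to the ligand. Oncostatin M (OSM) uses gp130 with the OSM receptor, and leukemia inhibitory factor (LIF) uses gp130 with the LIF receptor. IL-19, IL-20 and IL-24 can all instead signal through a heterodimer of the IL-20 receptor alpha and beta chains, which keratinocytes carry. Both kinds of receptor activate JAK kinases, which phosphorylate STAT3, and STAT3 induces SOCS3, which then shuts the receptor off. In the epidermis IL-20 family cytokines and OSM are known for driving thickening and inflammatory gene expression and for holding back terminal differentiation, as in psoriasis.

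In the GRCm38 annotation the 3 IL-20 family genes lay side by side on the minus strand of chromosome 1, Il24 at chr1:130882074-130887454, Il20 at chr1:130906985-130911451 and Il19 at chr1:130932656-130940115, with gaps of 19530 and 21204 bp. Osm (chr11:4236420-4241026) and Lif (chr11:4257557-4272514) were also neighbors, 16530 bp apart. Socs3 was at chr11:117966079-117970047, Osmr at chr15:6813577-6874969, Il6 at chr5:30013114-30019981 and Il11 at chr7:4772373-4782859. Stat3 (chr11:100885098-100939540) overlapped Stat5a on the opposite strand, and as the strand used in counting was not stated, reads in the overlap cannot be told apart.

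Promoters are shown because several of these genes moved together and STAT dimers bind a short palindrome. Of the 10 genes, 8 had a RefSeq promoter (250 bases before to 50 after the start, GRCm38.p6), and Il24 and Osm had none in the table used. The stricter palindrome TTCCNGGAA, searched on both strands, was in 0 of these 8 genes and in 1.15% of all 32851 promoters. The looser palindrome TTCNNNGAA, which contains the stricter one, was in 2 genes, Il19 and Socs3, and in 8.30% of all promoters. The 250 bases before each start are given 5′ to 3′ on the gene's strand, with the palindrome in capitals. It began 225 bases before the start in Il19 (chr1:130940116-130940365, minus strand) and 154 bases before the start in Socs3 (chr11:117969367-117969616, minus strand). A match describes letters only, and no binding was measured.
Il19: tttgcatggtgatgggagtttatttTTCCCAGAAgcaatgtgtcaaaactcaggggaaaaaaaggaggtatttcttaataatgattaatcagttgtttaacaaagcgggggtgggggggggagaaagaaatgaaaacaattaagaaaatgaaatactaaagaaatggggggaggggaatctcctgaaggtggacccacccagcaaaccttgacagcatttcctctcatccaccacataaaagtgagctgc
Socs3: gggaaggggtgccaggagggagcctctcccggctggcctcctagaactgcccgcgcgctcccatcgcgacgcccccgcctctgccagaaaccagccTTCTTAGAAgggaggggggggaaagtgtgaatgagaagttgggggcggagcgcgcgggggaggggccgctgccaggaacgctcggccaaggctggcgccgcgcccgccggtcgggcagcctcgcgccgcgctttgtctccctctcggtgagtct

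Library totals ranged from 1624325 to 6295575 counts in NS, from 867219 to 14055206 in AK and from 775750 to 7095102 in cSCC, so that the level given by 3 counts lay between 0.225 and 3.78 CPM, which are counts scaled to a common library total with TMM factors. This floor covers counting error only. Keratinocyte markers summed to 6378 to 19004 CPM in NS, 9625 to 16972 in AK and 3785 to 17976 in cSCC, and none of the 6 was at 0 throughout a group. Of the 4 cSCC, 3 stood apart. In cSCC 18, haemoglobin genes took 46.8% of counts, against at most 5.45% in NS and 14.3% in AK. In cSCC 20, lung epithelium markers summed to 35644 CPM (NS at most 32.9), and in cSCC 21 heart muscle markers summed to 60634 CPM (NS at most 45.1). Results on cSCC are therefore also given without cSCC 20 and cSCC 21.

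Il24 rose in cSCC against both NS and AK. Il24, whose product is a cytokine of keratinocytes and immune cells, was near the floor in most NS, with a lowest value of 0 CPM, a median of 0.438 and a highest value of 41.4. In AK it ranged from 9.58 to 32.5 CPM with a median of 27.9. In cSCC it measured 85.4 CPM in cSCC 18, 836 in cSCC 19, 66.0 in cSCC 20 and 13.1 in cSCC 21. Thus 3 of the 4 cSCC were above every NS and every AK, while cSCC 21 lay within both ranges, and NS 7 (21.7 CPM) and NS 8 (41.4 CPM) lay far above the other NS. Group means were 8.32 ± 15.3 CPM (SD, n = 8) in NS, 24.2 ± 8.26 (n = 8) in AK and 250 ± 392 (n = 4) in cSCC. Il24 was higher in cSCC than in NS by 4.94 ± 1.36 on the log2 scale (SE, edgeR adjusted p = 0.0219) and higher than in AK by 3.46 ± 0.71 (adjusted p = 0.00500). In bulk tissue, more cells of a type and more RNA per cell cannot be told apart. Sample cSCC 19 decided the size: without it the log2 fold changes were 2.74 (adjusted p = 0.171) and 1.24 (adjusted p = 0.0669), whereas without cSCC 20 and cSCC 21 they were 5.81 (adjusted p = 0.0174) and 4.34 (adjusted p = 0.00116).

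Il19, whose product acts on keratinocytes through the same receptor, followed a similar order of groups. In NS it had a lowest value of 0 CPM, a median of 4.17 and a highest value of 47.7, and in AK it ranged from 21.7 to 92.3 CPM with a median of 31.5. Among cSCC, Il19 was at 320 CPM in cSCC 18, 348 in cSCC 19, 85.3 in cSCC 20 and 3.47 in cSCC 21. Both cSCC 18 and cSCC 19 were above every AK, and cSCC 21 was below every AK. Il19 was higher in cSCC than in NS by 3.66 ± 1.19 (log2, SE, adjusted p = 0.0447) and than in AK by 2.19 ± 0.69 (adjusted p = 0.0326). These calls lay close to the threshold: the first was lost without any single one of NS 1, 2, 4, 5, 6 or 9, cSCC 18 or cSCC 19, with an adjusted p of up to 0.104, and the second without any of AK 10 to 15, cSCC 18 or cSCC 19, with an adjusted p of up to 0.114. Without cSCC 20 and cSCC 21 together, the values were 4.47 (adjusted p = 0.0273) and 3.01 (adjusted p = 0.00167).

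Il20, the third gene of the cluster, differed in pattern from its neighbors. It had 22 counts over the 8 NS, 133 over the 8 AK and 7 over the 4 cSCC. In NS, 5 samples were at 0 and the highest had 2.55 CPM, whereas in AK every sample had counts, from 2.06 to 6.07 CPM with a median of 3.15. Among cSCC, Il20 was at 2.78 CPM in cSCC 18, 3.41 in cSCC 20 and 0 in both cSCC 19 and cSCC 21, where 3 counts would have been 1.32 and 0.496 CPM. Thus the sample with the most Il24 had no Il20 count. The edgeR expression filter left Il20 out of AK vs. NS, and an exact permutation test on log2(CPM + 1) gave a difference of 1.66 between the 2 groups (two-sided p = 6.22e-04, adjusted p = 0.00746 over the 12 such tests). DESeq2 gave a log2 fold change of 2.61 (adjusted p = 0.0123), while edgeR without the filter gave 2.53 (adjusted p = 0.0737). In cSCC vs. AK Il20 did not pass the edgeR test (log2 fold change −1.46 ± 0.95 SE, adjusted p = 0.279).

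**Figure D1:**
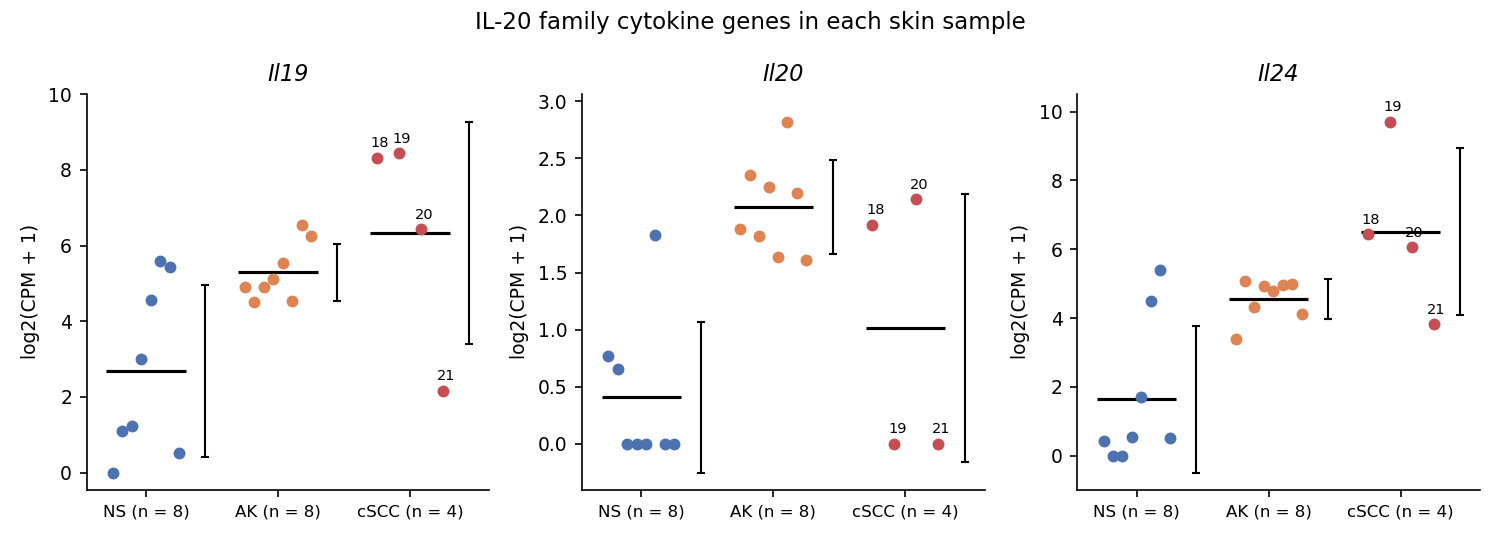
Levels of Il19, Il20 and Il24 in each skin sample as log2(CPM + 1), with a point for each sample, a horizontal line for the group mean and a bar for 1 SD, and with cSCC numbered. Il24 and Il19 reach 836 and 348 CPM in cSCC 19, while Il20 is at 0 there and is above 2 CPM in every AK.

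Il24 took a mean of 23.7% ± 20.2 (SD, n = 4) of the summed Il19, Il20 and Il24 counts in NS, 36.1% ± 13.8 (n = 8) in AK and 53.3% ± 26.6 (n = 4) in cSCC. The other 4 NS had fewer than 10 such counts and were left out. Among cSCC the share was 20.9% in cSCC 18 (95% Wilson interval 17.8% to 24.4%), 70.6% in cSCC 19 (68.9% to 72.3%), 42.6% in cSCC 20 (34.6% to 51.0%) and 79.0% in cSCC 21 (70.0% to 85.8%). These intervals cover counting error only. Il24 was the larger part in cSCC 19 and cSCC 21, and Il19 in cSCC 18 and cSCC 20. No difference between groups passed the exact permutation test (adjusted p = 0.272 for AK vs. NS and 0.245 for both other comparisons, over 6 tests of shares).

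Among the IL-6 family ligands Osm separated the groups most clearly. Its product is made mainly by neutrophils, macrophages and T cells. In NS, 4 samples were at 0, the median was 0.440 CPM and the highest value 2.55, and in AK the values ran from 0 to 6.59 CPM with a median of 1.35. In cSCC Osm measured 6.25 CPM in cSCC 18, 28.6 in cSCC 19, 18.2 in cSCC 20 and 7.11 in cSCC 21. Every cSCC was above every NS, an ordering found in 2.7% of all genes tested, and 3 of 4 were above every AK. Osm was higher in cSCC than in NS by 4.00 ± 0.86 (log2, SE, adjusted p = 0.00753) and than in AK by 3.03 ± 0.86 (adjusted p = 0.0203). It passed the expression filter only where cSCC was compared, so that a kept Osm was bound to be one high in cSCC, and in 6 of 12 single-sample omissions from cSCC vs. NS it was not kept. Without cSCC 19 the values were 3.48 (adjusted p = 0.0298) against NS and 2.49 (adjusted p = 0.0795) against AK, and without cSCC 20 and cSCC 21 they were 4.21 (adjusted p = 0.0203) and 3.26 (adjusted p = 0.0444).

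The 9 neutrophil marker genes summed to 115 to 5900 CPM in NS, 647 to 3159 in AK and 2691 to 14851 in cSCC, with none at 0 throughout a group, and 2 of the 9 were called higher in cSCC than in NS (Cxcr2 and Csf3r), where 11.7% of all genes were, and 5 of the 9 higher than in AK, where 16% of all genes were. The highest sum, in cSCC 18, was in the carcinoma with the lowest Osm. Most of that sum was S100a8 (6151 CPM) and S100a9 (8418 CPM), both among the 5 called against AK. They are also listed below as keratinocyte genes raised by IL-20 family cytokines and OSM, so the sum does not measure neutrophils alone. The 8 macrophage and monocyte genes in the table summed to 1563 to 5111 CPM in NS, 1491 to 8211 in AK and 799 to 6563 in cSCC, with 1 of 8 called higher in each cSCC comparison (C1qa), near the share of all genes. The 5 T cell genes in the table summed to 45.1 to 190 CPM in NS, 24.6 to 130 in AK and 3.47 to 28.4 in cSCC. The part of these cells in the Osm result was not tested.

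Il6, the founding ligand of the family, had 13 counts over all NS, 34 over all AK and 28 over the 4 cSCC. It was at 0 in 5 of 8 NS and reached 1.57 CPM, and it reached 3.6 CPM in AK. The cSCC had 1.39 CPM in cSCC 18, 5.71 in cSCC 19, 11.4 in cSCC 20 and 0.496 in cSCC 21, so 2 of 4 were above every NS and every AK. The exact permutation test gave a difference of 1.69 in log2(CPM + 1) between cSCC and NS (two-sided p = 0.0101, adjusted p = 0.0606). DESeq2 called it (log2 fold change 3.62, adjusted p = 0.0354) and edgeR without the filter did not (3.43, adjusted p = 0.0621). The highest Il6 value, in cSCC 20, rested on 10 counts in the smallest cSCC library. Without cSCC 20 and cSCC 21, Il6 was not called by edgeR in cSCC vs. AK (log2 fold change 1.82, adjusted p = 0.250).

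Lif, which acts through gp130 and the LIF receptor, had 21, 17 and 8 counts over NS, AK and cSCC and was at 0 in 4, 4 and 2 samples. Il11, a gp130 ligand of stromal cells, had 3 counts in each group, with no sample above 2 counts. For these ligands a difference was not detectable at this depth, and their adjusted p in the exact permutation tests was at least 0.325.

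**Figure D2:**
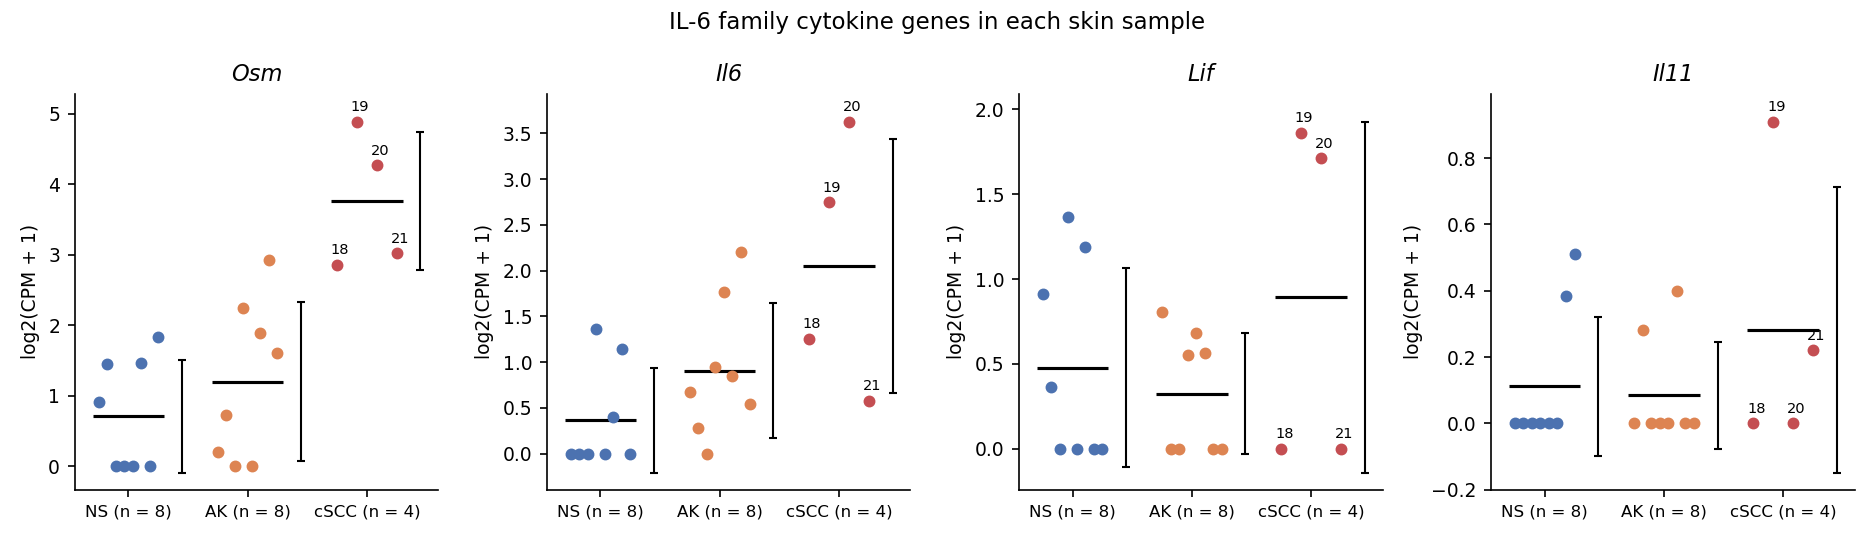
Levels of Osm, Il6, Lif and Il11 in each skin sample as log2(CPM + 1), with a point for each sample, a line for the group mean and a bar for 1 SD, each panel on its own scale. Every cSCC lies above every NS for Osm, from 6.25 to 28.6 CPM, and many samples are at 0 for Lif and Il11.

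Osmr, the ligand-specific receptor chain for OSM, moved opposite to its ligand in cSCC vs. AK. It ranged from 41.1 to 128 CPM in NS (median 83.5) and from 91.1 to 142 CPM in AK (median 122). In cSCC it measured 72.9 CPM in cSCC 18, 55.8 in cSCC 19, 46.6 in cSCC 20 and 31.6 in cSCC 21. All 4 cSCC were below all 8 AK, which held for 6.84% of all genes tested, and the cSCC range overlapped that of NS. Osmr was called lower in cSCC than in AK (log2 fold change −1.10 ± 0.23 SE, adjusted p = 0.00589), and this call was made in each of the 12 single-sample omissions (−1.37 to −1.0). Without cSCC 20 and cSCC 21 it was −0.82 (adjusted p = 0.0391). Keratinocyte markers were also low in cSCC 20 (5145 CPM) and cSCC 21 (3785 CPM), and in cSCC 18 and cSCC 19 they were at 17976 and 17175 CPM, above every AK. Of the 6 markers, Krt1 and Krt10 were called lower against NS (7.65% of all genes) and against AK (8.34%). Dsg3 was called higher against NS (11.7%). Krt1 and Krt10 are also listed below as genes lowered by IL-20 family cytokines and OSM. The part of keratinocytes in the Osmr result was not tested. Neither AK vs. NS (0.46 ± 0.19, adjusted p = 0.150) nor cSCC vs. NS (−0.67 ± 0.33, adjusted p = 0.166) passed the test.

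The LIF receptor also pairs with gp130, and Lifr was measured beside Osmr. Whether OSM used the LIF receptor in these mouse tissues was not measured. Osmr took 50.7% ± 18.3 (SD, n = 8) of the summed Osmr and Lifr counts in NS, 65.6% ± 8.81 (n = 8) in AK and 40.3% ± 19 (n = 4) in cSCC. Among cSCC the share was 53.0% in cSCC 18 (95% Wilson interval 46.1% to 59.9%), 59.1% in cSCC 19 (52.4% to 65.4%), 18.7% in cSCC 20 (14.1% to 24.4%) and 30.4% in cSCC 21 (26.9% to 34.1%). The share differed between cSCC and AK by −25.3 points (exact permutation p = 0.00808, adjusted p = 0.0485). That call was lost in 11 of 12 single-sample omissions, each AK, cSCC 18, cSCC 20 or cSCC 21 (−31.6 to −18.1 points, adjusted p of up to 0.158). The difference without cSCC 20 and cSCC 21 together was −9.57 points, with too few cSCC left for the test to say more. Lifr itself was at 203 CPM in cSCC 20 and between 38.7 and 72.4 CPM in the other cSCC, and it was called in none of the 3 comparisons (edgeR adjusted p of 0.167 to 0.862).

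**Figure D3:**
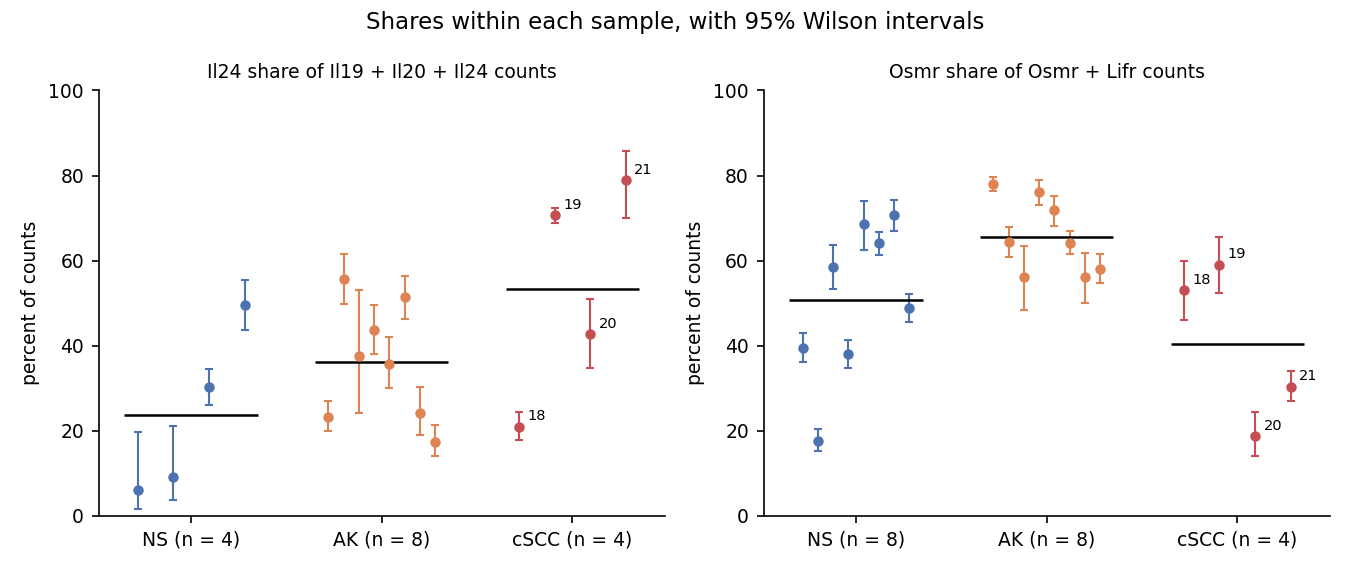
Percent of counts taken by Il24 within Il19 + Il20 + Il24 (left) and by Osmr within Osmr + Lifr (right) in each sample, with 95% Wilson intervals and a line for the group mean. The Il24 share spreads from 20.9% to 79.0% among cSCC, and the low Osmr shares of cSCC are those of cSCC 20 and cSCC 21.

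Stat3, the transcription factor on which these receptors converge, had overlapping RNA levels in all groups, at 111 ± 28.6 CPM (SD, n = 8) in NS, 117 ± 20.9 (n = 8) in AK and 115 ± 39.1 (n = 4) in cSCC. The cSCC had 86.8 CPM in cSCC 18, 113 in cSCC 19, 88.7 in cSCC 20 and 171 in cSCC 21. The highest value was in the sample with heart muscle markers. The log2 fold changes were 0.06 ± 0.16 (SE) for AK vs. NS, 0.11 ± 0.27 for cSCC vs. NS and 0.12 ± 0.24 for cSCC vs. AK, none past the test (adjusted p of 0.747 to 0.849), and the sign turned in each comparison when only library size was used for scaling. Counts of RNA do not measure STAT3 phosphorylation, by which the protein is activated.

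Socs3, the STAT3-induced inhibitor of gp130 receptors, rose in cSCC. In NS it ranged from 3.87 to 22.8 CPM with a median of 6.92, and in AK from 8.39 to 16.6 CPM with a median of 11.6. In cSCC it measured 13.9 CPM in cSCC 18, 47.9 in cSCC 19, 22.8 in cSCC 20 and 21.7 in cSCC 21. Thus 3 of 4 cSCC were above every AK, and the highest NS, NS 8, was also the NS with the most Il24. Socs3 was higher in cSCC than in NS by 1.71 ± 0.47 (log2, SE, adjusted p = 0.0216) and than in AK by 1.32 ± 0.33 (adjusted p = 0.0128). Without cSCC 19 the values were 1.25 (adjusted p = 0.106) and 0.87 (adjusted p = 0.0741), and without cSCC 20 and cSCC 21 they were 1.91 (adjusted p = 0.0465) and 1.5 (adjusted p = 0.0252). Endothelial markers were also high in some cSCC. The 6 genes summed to 29.9 to 104 CPM in NS and 32.6 to 94.1 in AK, with none at 0 throughout a group. In cSCC the sums were 108 CPM in cSCC 18, 104 in cSCC 19, 191 in cSCC 20 and 519 in cSCC 21. The lowest of these, near the highest NS, was in cSCC 19, which had the most Socs3. Of the 6 endothelial genes, 5 were called higher in cSCC than in NS (11.7% of all genes) and 6 higher than in AK (16% of all genes). Their part in the rises of Socs3 and the cytokine genes was not tested. AK vs. NS did not pass for Socs3 (0.44 ± 0.32, adjusted p = 0.405), but did without NS 8 (0.83, adjusted p = 0.0492).

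**Figure D4:**
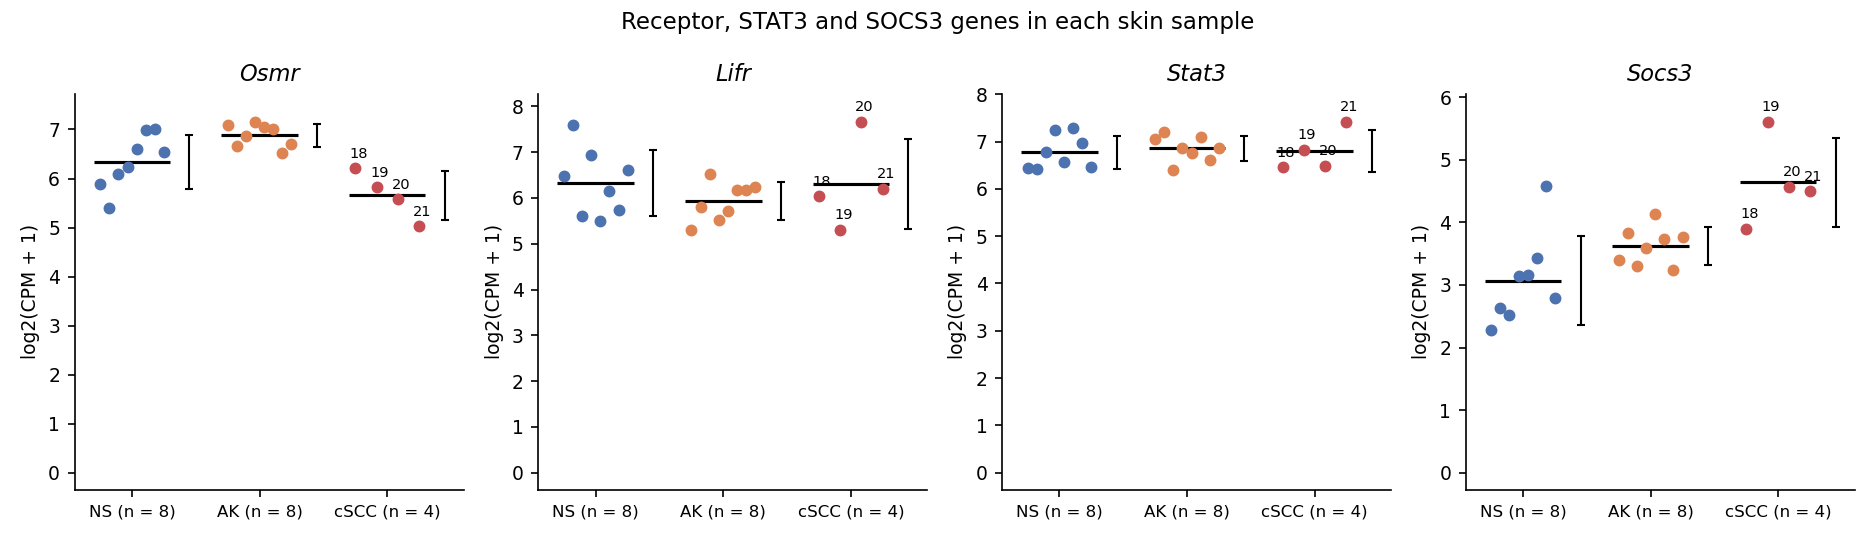
Levels of Osmr, Lifr, Stat3 and Socs3 in each skin sample as log2(CPM + 1), with a point for each sample, a line for the group mean and a bar for 1 SD. Osmr in all 4 cSCC (31.6 to 72.9 CPM) is below all AK (91.1 to 142 CPM), Stat3 overlaps in all groups, and Socs3 is highest in cSCC 19.

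A called gene had a Benjamini-Hochberg adjusted p below 0.05 over all genes tested, with a fold of more than 1.5 or less than 0.67. In AK vs. NS edgeR called 0 of the 5 tested members, against 2.26% called higher and 2.38% called lower of all 11677 genes tested. Of these 5, 1 (Osmr) had an unadjusted p under 0.05, and DESeq2 called 1 of 10 (Il20) with 2 at an unadjusted p under 0.05. In cSCC vs. NS, 4 of 6 tested members were called higher (Il24, Il19, Osm, Socs3), against 11.7% of 12097 genes, and none lower, against 7.65%. Leaving aside Osm, which the filter kept only for its level in cSCC, these were 3 of 5. In cSCC vs. AK, 4 of 7 were called higher (again Il24, Il19, Osm and Socs3), against 16% of 12032 genes, and 1 lower (Osmr), against 8.34%, and without Osm 3 of 6 were higher. Both comparisons share the 4 cSCC. With scaling by library size only, the median log2 fold change of all genes moved by −0.31 in cSCC vs. NS and by −0.26 in cSCC vs. AK, and the split of calls over all genes went from 1414 higher and 926 lower to 625 and 1332, and from 1931 and 1004 to 1021 and 1356. In AK vs. NS the split went from 264 and 278 to 176 and 481. Under it Il24 and Osm were still called higher in both cSCC comparisons, and Il19 and Socs3 missed the threshold (adjusted p of 0.0501 to 0.0601).

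**Figure D5:**
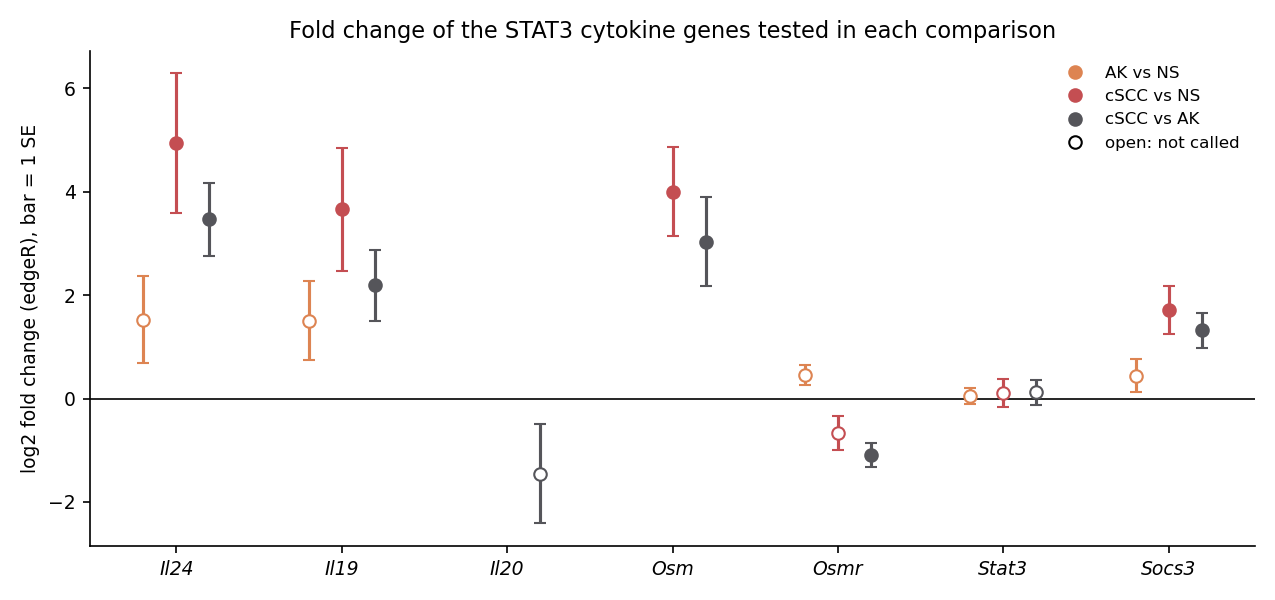
Log2 fold change from edgeR with 1 SE for each member tested in each pair of groups, with filled points for called genes and open points for the others. Il24, Il19, Osm and Socs3 are called higher in both cSCC comparisons, Osmr is called lower in cSCC vs AK, and the Stat3 points lie between 0.06 and 0.12.

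Levels of different genes were compared as CPM per kb of exon. In NS the order of means was led by Il19 (13.3 ± 17.3 CPM per kb, SD, n = 8), Stat3 (11.7 ± 3.01), Osmr (7.04 ± 2.55), Il24 (6.0 ± 11) and Socs3 (2.95 ± 2.11). The first 4 did not differ beyond the spread of Il19 and Il24. In most NS the order was another. Il19 was below both Stat3 and Osmr in NS 1, NS 2, NS 4, NS 5 and NS 9, at 0 to 6.07 CPM per kb. Il24 was below Socs3 in NS 1, NS 2, NS 4, NS 5, NS 6 and NS 9. In AK Il19 stood at 37.9 ± 22.9 CPM per kb and Il24 at 17.4 ± 5.96, above Stat3 at 12.2 ± 2.20 and Osmr at 9.78 ± 1.54. These are means, and Il24 was below Stat3 in AK 10 (6.91 against 13.9) and AK 17 (11.7 against 12.1). In cSCC Il24 (180 ± 283, n = 4) and Il19 (165 ± 149) came before Stat3 (12 ± 4.10), Socs3 (9.18 ± 5.11), Osm (6.62 ± 4.64) and Osmr (4.27 ± 1.43). The first pair did not differ beyond its spread, and neither did neighbors among Stat3, Socs3, Osm and Osmr. In cSCC 21 the order was another, with Stat3 at 17.9 CPM per kb above Il24 at 9.43 and Il19 at 3.02. Il6 (1.95 ± 2.05), Il20 (1.31 ± 1.52), Lif (0.282 ± 0.328) and Il11 (0.125 ± 0.201) were the lowest in cSCC.

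Of 13 receptor subunit genes other than Osmr, 9 were tested in each comparison. In cSCC vs. NS 4 of the 9 were called lower (7.65% of all genes). They were Il22ra2, a soluble decoy for IL-22, Il6ra, the IL-6 binding chain, and Il20ra and Il20rb. Il20ra and Il20rb encode the chains of a receptor for IL-19, IL-20 and IL-24. Il20rb went from 98.2 ± 44.6 CPM (SD, n = 8) in NS to 17.7 ± 16.6 (n = 4) in cSCC (log2 fold change −2.49, adjusted p = 0.0184), with all cSCC below all NS (5.73% of all genes tested), and Il20ra from 34.7 ± 14 to 9.58 ± 11.3 (−1.86, adjusted p = 0.0425). Without cSCC 20 and cSCC 21, Il20ra and Il20rb were not called, and Il6st, which encodes gp130, was. Called lower in AK vs. NS were 2 of 9 (2.38% of all genes), Il6ra (−0.83, adjusted p = 0.0472) and Il11ra1 (−0.83, adjusted p = 0.0371). In cSCC vs. AK 1 of 9 was called higher (16% of all genes), Il11ra1 (1.21, adjusted p = 0.0259). Without cSCC 20 and cSCC 21, Il11ra1 was not called in cSCC vs. AK, and Il6st was called lower. With scaling by library size only, Il11ra1 was not called there either, and Il20ra and Il20rb were called lower. The median log2 fold changes of the subunits were −0.83 in AK vs. NS (−0.04 over all genes tested), −0.42 in cSCC vs. NS (0.14 over all) and −0.62 in cSCC vs. AK (0.17 over all).

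Among 24 kinase, STAT and inhibitor genes, those called higher in AK vs. NS included the transcription factor gene Stat2 (log2 fold change 1.14, adjusted p = 0.0190) and the kinase gene Jak2 (0.77, adjusted p = 0.0215), and none was called lower. In cSCC vs. AK those called lower included Stat2 (−1.34, adjusted p = 0.0104) and the inhibitor gene Socs4 (−0.99, adjusted p = 0.0241), and 1 of 22 tested was called higher (16% of all genes), the inhibitor gene Socs2 (1.57, adjusted p = 0.0137). In cSCC vs. NS 2 of 21 were called lower, a share near the 7.65% of all genes, Stat5a (−1.55, adjusted p = 0.0137) and Socs4 (−1.01, adjusted p = 0.0275). Without cSCC 20 and cSCC 21, Stat5a was still called lower against NS and Stat2 against AK. Socs4 was then called in neither comparison, and Socs2 was not called against AK. The list medians were 0.03 in AK vs. NS, 0.11 in cSCC vs. NS and −0.11 in cSCC vs. AK.

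Of 24 STAT3 target genes in the table, 9 were called higher and 0 lower in cSCC vs. NS, and 8 higher and 0 lower in cSCC vs. AK, all 24 tested, where 11.7% and 16% of all genes were called higher. With scaling by library size only, the counts were 7 higher and 1 lower (Pim1) against NS and 7 higher and 0 lower against AK. Examples against NS were Saa3, an acute phase protein (log2 fold change 3.0, adjusted p = 0.0368), Vegfa, an angiogenic factor (3.0, adjusted p = 0.00250), and Ccnd1, a driver of the cell cycle (2.56, adjusted p = 0.00167), and against AK Pim3, a survival kinase (2.93, adjusted p = 0.00446), Saa3 (2.91, adjusted p = 0.0161) and Ccnd1 (2.49, adjusted p = 0.00287). For AK vs. NS, 2 of 23 were higher (2.26% of all genes), Vegfa (1.60, adjusted p = 0.0184) and Hif1a (1.37, adjusted p = 0.00245), and 1 lower (2.38% of all genes), Pim1 (−1.04, adjusted p = 0.0332). Many of these genes also answer to other factors. The list medians were 1.07 in cSCC vs. NS (0.14 over all genes), 0.67 in cSCC vs. AK (0.17 over all) and 0.13 in AK vs. NS (−0.04 over all). Without cSCC 20 and cSCC 21 the counts were 4 higher in cSCC vs. NS and 5 higher in cSCC vs. AK. Of the examples named above, Vegfa and Ccnd1 were then still called against NS and Ccnd1 against AK. Saa3 was called in neither comparison, and Pim3 was not called against AK.

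Keratinocyte genes known to be raised by IL-20 family cytokines and OSM were called higher in 4 of 13 tested for cSCC vs. NS (11.7% of all genes): the matrix metalloproteinase genes Mmp10 (log2 fold change 5.33, adjusted p = 0.00228) and Mmp3 (2.29, adjusted p = 0.0343), the antimicrobial S100a7a (3.36, adjusted p = 0.0345) and the growth factor gene Hbegf. In cSCC vs. AK 4 of 14 were higher (16% of all genes), among them S100a9 (2.25, adjusted p = 0.00622), S100a8 (1.97, adjusted p = 0.0165) and S100a7a (1.65, adjusted p = 0.0111). S100a8 and S100a9 are also neutrophil genes and stood in that marker list. Against NS, AK had 1 of 13 higher (2.26% of all genes), Mmp10 (3.01, adjusted p = 0.0426). The list medians were 1.56 in cSCC vs. NS, 1.11 in cSCC vs. AK and 0.45 in AK vs. NS. Without cSCC 19 only Mmp10 was still called in cSCC vs. NS. Without cSCC 20 and cSCC 21, S100a7a was called in neither cSCC comparison. Mmp10, Mmp3 and Hbegf were then still called against NS, and S100a8 and S100a9 against AK, where Mmp10 was called as well.

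Differentiation genes known to be lowered by the same cytokines fell in 6 of 7 tested in cSCC vs. NS (7.65% of all genes were called lower), 5 of 6 in cSCC vs. AK (8.34%) and 3 of 7 in AK vs. NS (2.38%). Their medians were −4.04, −3.65 and −0.91 in the same order. The cornified envelope and barrier genes Flg2, Lor and Flg fell in cSCC vs. NS, with log2 fold changes of −7.32, −6.35 and −4.41 (adjusted p = 0.00387, 0.000558 and 0.00680). In AK vs. NS Krt2 (−2.99, adjusted p = 0.0411), Flg2 (−2.12, adjusted p = 0.0238) and Lor (−1.71, adjusted p = 0.0170) fell. With all samples in 1 fit no gene of any of the 6 lists was called lower in AK vs. NS, and 1 was called higher, and over the 16 single-sample omissions 1 to 8 were called lower, differing by over 1.5 times from the full fit in 8 of them (NS 1, 4 and 5 and AK 11, 12, 13, 15 and 16). Without cSCC 20 and cSCC 21 the counts were 4 in cSCC vs. NS and 3 in cSCC vs. AK. The lists rest on textbook knowledge, and no cytokine was added or blocked in these samples.

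Among the 5 members with a mean of at least 5 CPM (Osmr, Il19, Il24, Stat3 and Socs3), the pair most alike across the 20 samples was Il24 and Socs3 (Spearman rho 0.831, and 0.846 over the 16 NS and AK), followed by Il24 and Il19 (rho 0.806, and 0.658 over NS and AK). Osmr ran with Socs3 over NS and AK (rho 0.788) but not once cSCC were included (rho 0.114). Among 10820 genes with a mean of at least 5 CPM, the genes most like Il24 were Ada (rho 0.926) and Smim3 (0.923), those most like Il19 were Il4ra (0.880) and Odc1 (0.868), and those most like Socs3 were Cirh1a (0.940) and Stom (0.887). Osmr was most like Diap2 (0.919) and B2m (0.865), and Stat3 most like Gtpbp1 (0.826) and Stat6 (0.789). These samples share groups, mice and sequencing depth, so the values describe this set of tissues only.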

How the data were processed

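The deposited table held raw counts per gene symbol, which the authors had not normalized. Per the paper's methods, the authors used Trimmomatic for trimming, HISAT2 for alignment to GRCm38 and StringTie for quantification. The submitters' processing notes name Trimmomatic 0.36, HISAT2 2.0.5 and featureCounts 1.5.2 and the builds mm9 and hg19, and the strand used in counting is not given in the sources used here. Counts in reads that map to near-identical or overlapping genes are therefore uncertain.

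Samples were grouped by the disease state in their labels. Within groups, 62 pairs of samples differed by more than sampling noise (chi-square of their counts at least 11.3 times its degrees of freedom). Levels are CPM with TMM factors over 20 samples. Groups were compared in pairs with edgeR 4.0.16 (R 4.3.3) by its quasi-likelihood test after filterByExpr, adjusted by Benjamini-Hochberg over all genes tested, and the SE is the log2 fold change divided by the square root of F. Members dropped by the filter were compared by exact permutation on log2(CPM + 1), and shares of counts by exact permutation, both two-sided. Scripts were checked on simulated data. Alternatives were DESeq2 1.42.0, library size alone, no filter, all samples in 1 fit, a pseudocount of 0.1, log odds in place of percent for the shares, leaving out each sample in turn and leaving out cSCC 20 and cSCC 21. Omission of the haemoglobin genes was an alternative chosen after seeing the data.

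The 10 members and the gene lists were chosen with earlier results of these data known. Named genes were all 10 members, up to 3 called genes per list, comparison and direction with the largest fold change, Lifr, and the 2 genes most like each member with a mean of at least 5 CPM. Named beyond this rule, after their values were seen, were Il6st, Hbegf, Cxcr2, Csf3r, C1qa, Krt1, Krt10 and Dsg3, and in the closing section Il10, Ebi3 and Clcf1. Coordinates and exon lengths are from GENCODE release M21 (GRCm38) and promoters from RefSeq (GRCm38.p6). Cebpd, Adgre1, Trac, Trbc2 and Trdc, which are in the lists, were not analysed here, and a result that needs a withheld item is not reported here.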

Additional observations from a re-analysis of the deposited data

Results flagged for a closer look

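Dixon's test at its 95% level was run on 36 groups of values, with member levels as log2(CPM + 1). It does not cover distances in CPM, where Il24 was at 836 in cSCC 19 and 85.4 in the next cSCC. In 1 group a sample lay far from the others, and chance flags about 1 in 20 groups. Il20 in NS 7 was at 2.55 CPM (16 counts), against 0.704 CPM in the next NS and 0 in 5 of 8 NS. NS 7 also had the highest Il19 of NS (47.7 CPM) and the highest neutrophil marker sum of NS (5900 CPM), most of it from S100a8 and S100a9. Whether NS 7 came from an irradiated mouse is not given by the labels.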

How the results depend on the processing

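No paired analysis was possible because the sample numbers of the groups do not overlap and the labels give no mouse. In AK vs. NS, members called higher went from 0 to 1 with DESeq2 (Il20), and over single-sample omissions from 0 to 1 (Socs3, without NS 8). With library size alone, 2 members were called higher in each cSCC comparison in place of 4. Over single-sample omissions the number was 1 to 4 in cSCC vs. NS (at most 2 without NS 1, NS 5, NS 9 or cSCC 19) and 0 to 4 in cSCC vs. AK (0 without cSCC 19). Genes of the pathway lists called higher ranged over single-sample omissions from 4 to 8 in AK vs. NS, from 8 to 15 in cSCC vs. NS and from 11 to 18 in cSCC vs. AK, and those called lower from 1 to 8, 8 to 15 and 5 to 12 in the same order. With all samples in 1 fit, AK vs. NS called 1 pathway gene higher and 0 lower, and cSCC vs. AK 15 lower. Il19 in cSCC vs. AK was also lost in that fit (adjusted p = 0.10).

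Stat3, never called, turned sign with library size alone (−0.022 in AK vs. NS, −0.16 in cSCC vs. NS and −0.14 in cSCC vs. AK), without cSCC 20 and cSCC 21 (−0.13 and −0.15 in the cSCC comparisons), and in cSCC vs. AK without the filter (−0.11) and with all samples in 1 fit (−0.039). Over single-sample omissions it ranged from −0.26 to 0.23 in cSCC vs. AK and from −0.16 to 0.22 in cSCC vs. NS. The Osmr share in cSCC vs. AK ranged from −31.6 to −18.1 points over single-sample omissions, and its call was lost in 11 of 12, all but that of cSCC 19. Without cSCC 20 and cSCC 21 it was −9.57, and in cSCC vs. NS the sign turned to 5.32. The causes were not tested. Leaving out haemoglobin genes changed no call of a member. In the smallest library 3 counts were 3.41 CPM in cSCC and 3.78 in AK, above most values of Il6, Il11, Il20 and Lif.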

Other observations

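Of 11 other ligands of the IL-6, IL-10 and IL-20 families, 0 to 2 passed the expression filter in any comparison, and none was called. Il10, an inhibitory cytokine that also signals through STAT3, was at 2.20 ± 1.12 CPM (SD, n = 8) in NS, 5.90 ± 5.43 (n = 8) in AK and 1.24 ± 1.46 (n = 4) in cSCC (edgeR adjusted p = 0.113 for AK vs. NS and 0.129 for cSCC vs. AK). Ebi3, a subunit of IL-27, was at 1.33 ± 0.783, 0.888 ± 0.797 and 3.79 ± 2.04 CPM, and Clcf1, a ligand of the ciliary neurotrophic factor receptor, at 1.2 ± 0.698, 2.94 ± 2.15 and 3.97 ± 3.67 CPM in NS, AK and cSCC. Il22, which uses a receptor close to that of IL-20, had no count in any AK or cSCC, where 3 counts would have been 0.225 to 3.78 CPM.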
